A study of Rattus norvegicus with 8 samples.

Results

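A history of silencing was compared across both later treatments in cultured rat neurons: 4 libraries from cultures first given tetrodotoxin (TTX, a toxin that blocks voltage-gated sodium channels and so stops action potentials) were set against 4 libraries from cultures first given vehicle, with the second treatment kept as a factor. The genes described are those whose 4 TTX-first values did not overlap the 4 vehicle-first values, all values being CPM (counts scaled to a common library size). Of 11372 genes that passed a filter on low counts, 330 met this rule (2.90%), 197 of them higher after TTX (1.73%) and 133 lower (1.17%). The table holds 16871 genes in all. With no filter on low counts, 14917 genes were scored, and 230 higher and 162 lower genes met the rule, of which 190 and 126 are among those described. Since the values themselves chose these 330 genes, their differences are given as a description, and no test of the history difference is offered in support of them.

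The cultures came from Sprague Dawley rat pups at postnatal days 1 to 2. The sample titles name hippocampal neurons only, whereas the growth protocol says that cortical and hippocampal tissue were both taken. Each culture received 1 µM TTX or water for 24 h from day 14 in vitro, was washed and left without drug for 48 h, and on day 17 received TTX or vehicle for a further 4 h. All cultures were given 2 mM bromouridine, an analogue of the RNA base uridine, for the last 30 min, so that only RNA made in that interval was captured and sequenced (BrU-seq). The first letter of a group's name is the first treatment and the second letter the second, T for TTX and H for vehicle. TH (TTX, then vehicle) and TT (TTX both times) had the history of silencing, and HH (vehicle both times) and HT (vehicle, then TTX) did not, with 2 libraries each. Whether replicates are separate cultures or animals is not said in the labels, so that errors and p-values cover only how these libraries differ, possibly for technical reasons.

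Neurons deprived of firing are known to adjust the strength of their synapses and their excitability, in part through transcription. Firing and calcium entry switch on immediate early genes such as Fos, Arc and Npas4, whose products in turn control later genes for secreted factors, receptors and channels. The comparison asks whether nascent transcription still differed more than 48 h after a period of silence had ended, whatever came next.

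Some libraries stood apart before any comparison of histories. The lowest and the highest total were both in TH, at 3489176 counts (replicate 1) and 4959887 counts (replicate 2). On the first principal component of log2 CPM, which holds 33.0% of the variance, the TTX-first libraries lay between -8.43 and -7.06, and of the vehicle-first ones HH replicate 1 lay at 37.7, HT replicate 1 at 12.7 and the others at -7.13 and -12.5. Replicates differed by more than 2-fold in 180 genes in TH and 155 in TT, against 546 in HH and 281 in HT. Many results that rest on HH replicate 1 or HT replicate 1 are therefore given with and without them. Where no second value is given, a result may still depend on these libraries. Neuronal markers were present in every library, with summed levels over 15 excitatory markers of 1670.4 to 1968 CPM in the TTX-first libraries and 1901 to 2068 CPM in the vehicle-first ones, beside astrocyte markers (17 genes, 2787 to 3360.2 CPM in the TTX-first and 2787 to 3499 CPM in the vehicle-first libraries). Neurons and glia were sequenced together, so that fewer cells of a type and less RNA per cell cannot be told apart.

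No gene passed the test of the history average. In edgeR's quasi-likelihood test over all 11372 genes, 0 had an adjusted p under 0.05 (0.00%), the smallest adjusted p being 0.814, and 654 had an unadjusted p under 0.05 (5.75%), 342 higher (3.01%) and 312 lower (2.74%). The same held for the history difference with vehicle as second treatment (TH against HH, 0 genes, edgeR's smallest adjusted p = 0.891, 464 genes at an unadjusted p under 0.05) and with TTX as second treatment (TT against HT, 0 genes, edgeR's smallest adjusted p = 1.00, 267 genes). DESeq2 and limma-voom also called 0 genes in the history average. Leaving out 1 library gave calls in the history average in 2 cases (edgeR): 104 genes, 12 higher and 92 lower, without HH replicate 2, where HH then consists of its replicate 1 alone, and 1 gene without TH replicate 2. Of the 330 genes without overlap, 179 had an unadjusted p under 0.05. The median standard error of a history difference was 0.14 on the log2 scale, and the median absolute difference was 0.11 over all 11372 genes, below that error. It was 0.30 over the 330 genes, which the rule chose by this same difference.

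The 197 higher genes had a median log2 change of 0.28, TTX first over vehicle first, with a range of 0.07 to 1.68, and 45 lay beyond 0.5. The 133 lower genes had a median of -0.33, with 32 beyond -0.5. The gap between the nearest libraries of the arms was narrow in most: its median was 0.06 on the log2 scale for the higher and 0.04 for the lower genes, and it reached 0.1 in 42 higher and 21 lower genes. Of the 330, 12 have placeholder symbols and are not named. The widest gaps were 0.43 (Clic2) among the higher and 0.57 (Rxfp2) among the lower. The median level was 29.9 CPM for the higher and 41.4 CPM for the lower genes, against 32.9 CPM over all genes tested. The split between directions depended on the scaling: with CPM from library totals in place of TMM (trimmed mean of M values) scaling, 366 genes were higher and 66 lower. TMM set the effective size of HH replicate 1 at 0.901 of its total and those of the other 7 libraries at 0.995 to 1.04 of theirs.

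**Figure D1:**
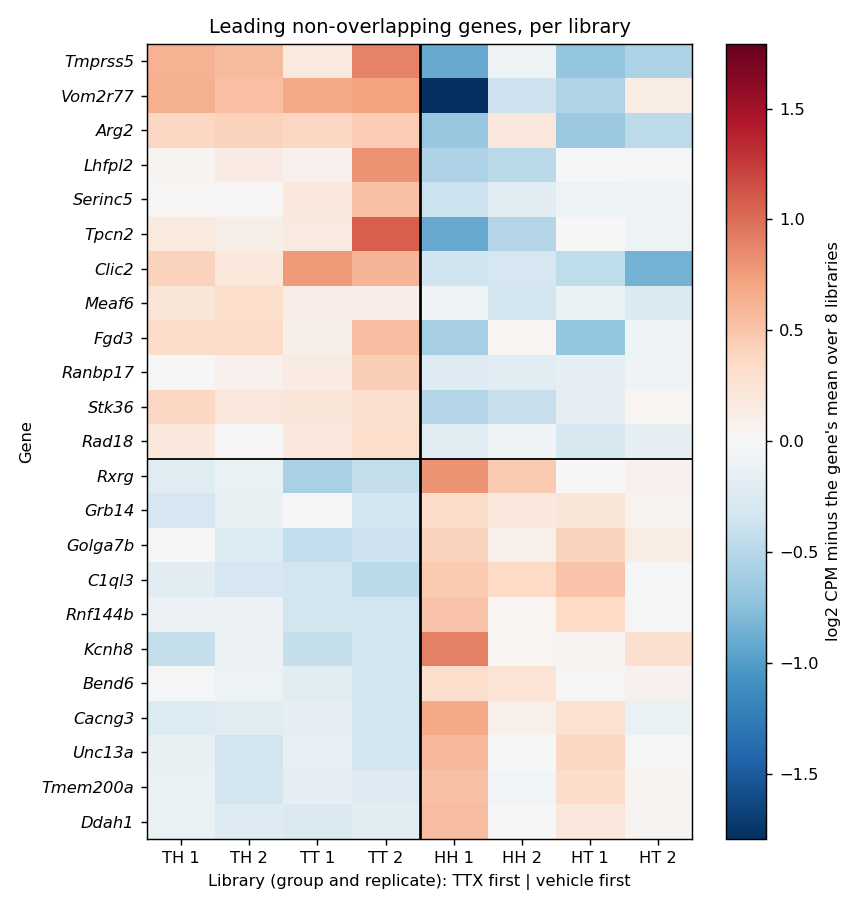
Log2 CPM of leading non-overlapping genes by smallest history p, 12 higher and 11 lower, each centred on its mean over the 8 libraries (colour), with the 4 TTX-first libraries left of the line and the 4 vehicle-first ones right of it. The strongest colours lie in HH replicate 1, for Tpcn2, Tmprss5 and Lhfpl2 in TT replicate 2, and for Clic2 in HT replicate 2, its lowest library.

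The higher genes of smallest p included a protease and an arginase. Tmprss5 encodes a transmembrane serine protease that is made in the nervous system. It had 11.6 and 11.1 CPM in TH and 8.47 and 13.9 CPM in TT, against 4.01 and 7.04 CPM in HH and 4.66 and 5.05 CPM in HT. The history difference was 1.12 ± 0.24 (log2 change ± SE, 4 libraries against 4, as for every value of this form), and TT replicate 2 was the highest library and HH replicate 1 the lowest. Arg2 encodes the mitochondrial arginase, which splits arginine into ornithine and urea. It had 18.5 and 19.02 CPM in TH and 18.4 and 19.7 CPM in TT, against 8.94 and 16.4 CPM in HH and 9.05 and 10.4 CPM in HT. The 4 TTX-first values lay close together, HH replicate 2 was the nearest of the vehicle-first libraries, and the difference was 0.76 ± 0.19. The difference was 0.55 ± 0.26 in TH over HH and 0.97 ± 0.27 in TT over HT.

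The lower genes of smallest p included a nuclear receptor and a gene of vesicle release. Rxrg, which encodes the gamma form of the retinoid X receptor, a nuclear receptor that pairs with retinoic acid and other hormone receptors, had 13.8 and 14.8 CPM in TH and 10.7 and 11.95 CPM in TT, against 28.1 and 22.2 CPM in HH and 16.04 and 16.8 CPM in HT. Its vehicle-first values were highest in HH, its difference was -0.67 ± 0.15, and both groups given TTX second lay below the group of the same history given vehicle second. Unc13a encodes the vesicle priming factor Munc13-1, which readies synaptic vesicles for release. It had 80.9 and 70.8 CPM in TH and 79.97 and 70.3 CPM in TT, against 132 and 89.2 CPM in HH and 114 and 87.6 CPM in HT, and the difference was -0.49 ± 0.14. HH replicate 1 and HT replicate 1 were the highest libraries, and without both of them the difference was -0.23.

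**Figure D2:**
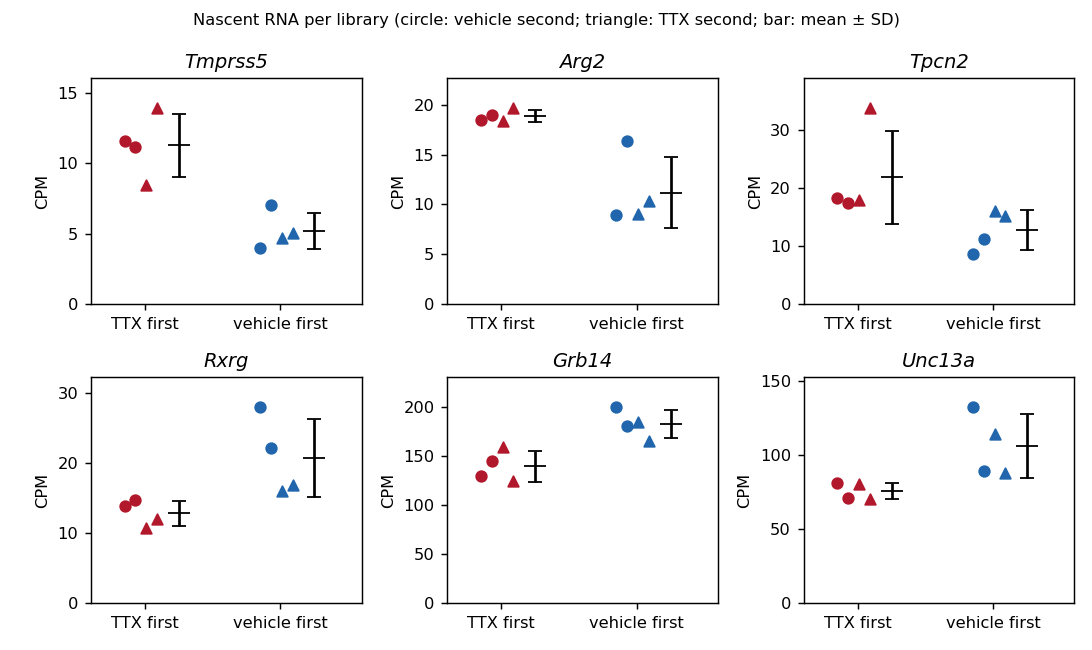
CPM of 6 non-overlapping genes per library in TTX-first (red) and vehicle-first (blue) cultures, circles for vehicle and triangles for TTX as second treatment, with the mean and SD of the 4 libraries as black bars. Arg2 has TTX-first values between 18.4 and 19.7 CPM, and Unc13a has its highest vehicle-first values of 132 and 114 CPM in the first replicates of HH and HT.

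The start regions of 3 leading members are shown. They hold letters searched for as the AP-1 or cAMP response element (CRE) motifs, which factors that answer to firing are known to use. TGACG, the CRE letters of Unc13a and Golga7b, does not set these 2 genes apart, as it was in 32.0% of all tested start regions. The AP-1 pattern of Tmprss5, TGANTCA, was in 4.59% of all tested start regions and in 2.41% of those of the higher genes. Whether other leading members hold such letters is not shown here. Each runs from 250 bases before to 50 bases after the annotated start of transcription, 5′ to 3′ on the gene's strand, from RefSeq (GRCr8), with the motif in capitals. Tmprss5 lies at chr8:58338205-58338504 (plus strand) and holds TGAATCA 10 bases before the start. These letters match TGANTCA, the loose pattern searched for as AP-1, in which the central N stands for any base. The central base here is A, and whether AP-1 factors use this form was not tested. Unc13a lies at chr16:18415737-18416036 (minus strand) and holds the short CRE motif TGACG, here as its reverse complement, at 62, 29 and 19 bases before the start. Golga7b lies at chr1:251008204-251008503 (plus strand) and holds the same short motif at 139 and 126 bases before it.
Tmprss5: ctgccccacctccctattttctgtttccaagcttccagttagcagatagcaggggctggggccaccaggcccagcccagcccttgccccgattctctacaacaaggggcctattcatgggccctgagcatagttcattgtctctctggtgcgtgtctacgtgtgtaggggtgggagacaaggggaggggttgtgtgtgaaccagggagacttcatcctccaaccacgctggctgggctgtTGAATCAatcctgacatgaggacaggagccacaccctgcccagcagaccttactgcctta
Unc13a: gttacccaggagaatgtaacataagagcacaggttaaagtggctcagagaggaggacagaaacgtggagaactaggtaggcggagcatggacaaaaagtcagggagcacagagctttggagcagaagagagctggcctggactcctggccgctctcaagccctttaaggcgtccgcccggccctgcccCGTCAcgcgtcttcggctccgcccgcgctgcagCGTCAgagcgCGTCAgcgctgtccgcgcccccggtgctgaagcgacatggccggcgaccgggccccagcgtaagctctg
Golga7b: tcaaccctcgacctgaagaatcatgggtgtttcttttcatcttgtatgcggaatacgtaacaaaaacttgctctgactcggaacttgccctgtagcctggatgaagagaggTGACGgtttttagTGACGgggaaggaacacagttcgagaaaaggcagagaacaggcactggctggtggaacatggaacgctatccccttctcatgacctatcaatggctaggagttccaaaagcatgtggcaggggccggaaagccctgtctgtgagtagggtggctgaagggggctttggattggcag

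Start regions were matched by symbol for 166 of the 197 higher, 113 of the 133 lower and 8627 of the 11372 tested genes, and both strands were searched. The full CRE, TGACGTCA, was in 3.61% of the higher, 6.19% of the lower and 3.30% of all tested start regions. The short motif TGACG, which the full CRE contains, was in 28.3%, 30.1% and 32.0%. The AP-1 pattern TGANTCA, with any base at its centre, was in 2.41%, 6.19% and 4.59%. The CCAAT box was in 39.8% of the higher, 25.7% of the lower and 37.6% of all, the GC box GGGCGG in 58.4%, 54.9% and 62.6%, and the TATA box TATAAA in 6.63%, 6.19% and 6.53%. The mean GC content was 59.4%, 61.3% and 61.0%. The counts of CRE are 6 higher and 7 lower genes and those of AP-1 are 4 and 7, so that these shares rest on few genes, and a match is a description of letters and not a binding site.

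Other higher genes act in membranes and lysosomes. Tpcn2 encodes a cation channel of lysosomes and endosomes. It had 18.2 and 17.4 CPM in TH and 17.9 and 33.9 CPM in TT, against 8.64 and 11.2 CPM in HH and 16.04 and 15.2 CPM in HT, a difference of 0.79 ± 0.21, and its highest value was in TT replicate 2. Lhfpl2, which encodes a small membrane protein of the LHFPL family, had 65.7 and 70.6 CPM in TH and 67.02 and 112 CPM in TT, against 43.2 and 45.6 CPM in HH and 62.9 and 62.04 CPM in HT. Here too TT replicate 2 was highest, and the other 3 TTX-first libraries stood just above the HT libraries (0.57 ± 0.14). Serinc5 encodes a multipass membrane protein of the serine incorporator family. It had 248 and 248 CPM in TH and 279.5 and 352 CPM in TT, against 187 and 212 CPM in HH and 229.7 and 233 CPM in HT, and the TTX-first values were higher with TTX as second treatment than with vehicle (0.38 ± 0.10).

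Clic2, of the family of intracellular chloride channel proteins, had the widest gap of the higher genes on low counts, with 4.70 and 4.05 CPM in TH and 5.98 and 5.38 CPM in TT, against 2.78 and 2.87 CPM in HH and 2.59 and 1.97 CPM in HT from 7 to 27 reads a library. Its difference was 0.95 ± 0.26, and TT lay above TH. Slc2a5, which encodes a fructose transporter, had 8.01 and 6.07 CPM in TH and 6.98 and 6.57 CPM in TT, against 4.63 and 4.43 CPM in HH and 4.14 and 3.65 CPM in HT. All TTX-first values exceeded 6 CPM and no vehicle-first value reached 5 CPM, with a difference of 0.70 ± 0.22. Vom2r77 belongs to the large family of vomeronasal receptors, among whose near-identical copies reads may be split, so that its values are uncertain. It had 9.94 and 9.31 CPM in TH and 10.2 and 10.6 CPM in TT, against 1.85 and 4.96 CPM in HH and 4.40 and 7.02 CPM in HT, with HH replicate 1 lowest (1.16 ± 0.26, and 0.91 without that library).

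Signalling genes were among the higher ones. Fgd3, which encodes an exchange factor for small GTPases, had 42.8 and 43.1 CPM in TH and 36.9 and 50.2 CPM in TT, against 22.5 and 34.95 CPM in HH and 21.2 and 32.3 CPM in HT. The first replicates of HH and HT were the lowest libraries, and the difference was 0.64 ± 0.18 with all libraries and 0.37 without those 2. Stk36, which encodes a kinase related to the fly Hedgehog pathway kinase Fused, had 16.6 and 14.8 CPM in TH and 14.9 and 15.7 CPM in TT, against 8.94 and 9.65 CPM in HH and 11.4 and 13.2 CPM in HT (0.53 ± 0.15). Tnfrsf25 encodes a death receptor of the tumour necrosis factor receptor family. It ranged from 3.59 to 4.24 CPM in the TTX-first libraries, against 1.29 to 2.87 CPM in the vehicle-first ones, on 5 to 20 reads a library (0.99 ± 0.32). Ranbp17, which encodes a nuclear transport receptor of the importin beta family, ranged from 120.2 to 162 CPM in the TTX-first libraries, against 102 to 115 CPM in the vehicle-first ones (0.33 ± 0.09).

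Genes for chromatin and DNA maintenance were also present, at small differences. Meaf6, which encodes a shared subunit of MYST histone acetyltransferase complexes, had 43.4 and 46.1 CPM in TH and 40.4 and 40.6 CPM in TT, against 35.5 and 29.7 CPM in HH and 34.4 and 31.2 CPM in HT. The 2 highest libraries were TH and the difference was 0.38 ± 0.11, which was 0.45 without HH replicate 1. Ezh1, which encodes a histone methyltransferase of Polycomb repressive complexes, had 27.3 and 23.9 CPM in TH and 26.7 and 28.7 CPM in TT, against 21.6 and 20.9 CPM in HH and 21.2 and 21.1 CPM in HT. The 4 vehicle-first values lay within 1 CPM of each other, and the difference was 0.33 ± 0.12. Rad18, which encodes a ubiquitin ligase of DNA damage tolerance, ranged from 41.7 to 51.99 CPM in the TTX-first libraries, against 34.1 to 39.9 CPM in the vehicle-first ones (0.35 ± 0.10).

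Chaf1b, which encodes a subunit of chromatin assembly factor 1, ranged from 4.98 to 7.18 CPM in the TTX-first libraries, against 3.70 to 4.66 CPM in the vehicle-first ones (0.58 ± 0.23). Setdb1, which encodes a histone methyltransferase of silent chromatin, ranged from 75.2 to 79.5 CPM in the TTX-first libraries, against 58.3 to 75.03 CPM in the vehicle-first ones. Its difference of 0.15 ± 0.10 was 0.07 without HH replicate 1, its lowest library. The synaptic adhesion gene Nlgn3 ranged from 118 to 133 CPM in the TTX-first libraries, against 102 to 114 CPM in the vehicle-first ones, with the HT libraries nearest to the TTX-first ones (0.18 ± 0.08).

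Mitochondrial and structural proteins complete the leading higher genes. Apool, which encodes a part of the complex that shapes mitochondrial cristae, had 12.7 and 12.5 CPM in TH and 13.2 and 13.5 CPM in TT, against 10.2 and 9.13 CPM in HH and 9.57 and 8.98 CPM in HT. Its TTX-first values lay within about 1 CPM of each other and above all vehicle-first values, with a difference of 0.46 ± 0.15. Prx, which encodes periaxin, a protein known from myelinating Schwann cells, had 3.59 and 3.24 CPM in TH and 2.99 and 3.78 CPM in TT, against 1.23 and 2.35 CPM in HH and 2.07 and 1.12 CPM in HT on 4 to 19 reads a library (0.98 ± 0.35). The largest differences of the higher genes were on few reads too: Trim72, named after its values were seen, had 3.31 and 2.43 CPM in TH and 2.74 and 1.39 CPM in TT, against 0 and 0.782 CPM in HH and 1.29 and 1.12 CPM in HT, with HH replicate 1 at 0 reads.

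Secreted and matrix genes on the lower side included C1ql3, whose product is released at synapses and binds an adhesion receptor. It had 8.56 and 7.89 CPM in TH and 7.72 and 6.97 CPM in TT, against 13.6 and 12.5 CPM in HH and 13.97 and 9.55 CPM in HT. Only HT replicate 2 among the vehicle-first libraries came close to the TTX-first values, and the difference was -0.68 ± 0.18. Has3, which encodes a hyaluronan synthase of the extracellular matrix, had 1.66 and 2.23 CPM in TH and 1.49 and 2.39 CPM in TT, against 6.48 and 2.87 CPM in HH and 4.40 and 4.21 CPM in HT on 6 to 21 reads a library, with HH replicate 1 highest (-1.15 ± 0.35, and -0.82 without it). Rxfp2, which encodes a receptor for the hormone INSL3, had the widest gap of all on 7 to 16 reads a library, with 2.49 and 2.02 CPM in TH and 2.49 and 1.39 CPM in TT, against 4.32 and 4.17 CPM in HH and 4.14 and 3.93 CPM in HT. The 4 vehicle-first values were nearly equal, and the difference was -0.9995 ± 0.30.

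Some genes of ion channels and receptor subunits were among the lower genes, as others, such as Tpcn2 and Clic2, were among the higher ones. Kcnh8, which encodes a voltage-gated potassium channel subunit, had 28.2 and 35.2 CPM in TH and 28.2 and 30.1 CPM in TT, against 70.6 and 38.9 CPM in HH and 39.1 and 46.04 CPM in HT. HH replicate 1 was far above the other libraries, and the difference of -0.66 ± 0.18 was -0.42 without it. Kcnk2, which encodes a leak potassium channel, had 77.1 and 77.3 CPM in TH and 78.7 and 65.5 CPM in TT, against 129.8 and 93.6 CPM in HH and 108 and 79.5 CPM in HT. Its vehicle-first libraries spread more widely than the arms were apart, and the difference was -0.46 ± 0.13 with all libraries and -0.21 without the first replicates of HH and HT. Cacng3, which encodes an auxiliary subunit of AMPA-type glutamate receptors, had 81.8 and 83.98 CPM in TH and 86.7 and 77.3 CPM in TT, against 155 and 103 CPM in HH and 117 and 89.00 CPM in HT. Its difference was -0.48 ± 0.14, and -0.22 without those 2 libraries.

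Sodium channel genes encode the targets of TTX or proteins that bind to them. Fgf13, which encodes an intracellular protein that binds sodium channels, had 54.4 and 47.96 CPM in TH and 54.3 and 45.4 CPM in TT, against 110.1 and 57.6 CPM in HH and 81.2 and 55.3 CPM in HT. HH replicate 2 and HT replicate 2 were close to the TTX-first values, and the difference of -0.58 ± 0.21 was -0.17 without the first replicates of HH and HT. Scn3b, which encodes a sodium channel beta subunit, had 124 and 120.2 CPM in TH and 138 and 124 CPM in TT, against 138 and 158 CPM in HH and 139 and 153 CPM in HT, with TT replicate 1 just under HH replicate 1 and a difference of -0.22 ± 0.09. Gabbr2, which encodes a subunit of the metabotropic GABA receptor, had 577 and 573 CPM in TH and 573 and 526 CPM in TT, against 611 and 604 CPM in HH and 598 and 599 CPM in HT. Its arms were 0.05 apart at their nearest on the log2 scale, and its difference was -0.10 ± 0.09. The synaptic adhesion gene Slitrk5 ranged from 16.9 to 19.9 CPM in the TTX-first libraries, against 20.3 to 21.99 CPM in the vehicle-first ones (-0.18 ± 0.13).

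Fosl2, which encodes a member of the AP-1 family, was the only one of the 22 rapid activity-response genes without overlap, with 17.7 and 17.2 CPM in TH and 16.2 and 17.3 CPM in TT, against 72.8 and 17.7 CPM in HH and 27.7 and 17.97 CPM in HT. HH replicate 1 was far above the other libraries and HT replicate 1 next, HH replicate 2 was just above the highest TTX-first library, and the difference of -0.90 ± 0.44 was -0.24 without HH replicate 1 and -0.06 without HT replicate 1 as well. Bend6, which encodes a BEN domain protein known in mice to oppose Notch signalling, ranged from 37.2 to 45.6 CPM in the TTX-first libraries, against 47.6 to 58.3 CPM in the vehicle-first ones (-0.33 ± 0.09).

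Other named lower genes included genes for signalling proteins, enzymes and a heat shock protein. Grb14, which encodes an adaptor that restrains the insulin receptor, had 129 and 145 CPM in TH and 159 and 125 CPM in TT, against 200.5 and 181 CPM in HH and 185 and 166 CPM in HT (-0.39 ± 0.10). Ddah1, which encodes an enzyme that breaks down inhibitors of nitric oxide synthase, had 66.3 and 61.3 CPM in TH and 60.5 and 62.9 CPM in TT, against 106 and 72.5 CPM in HH and 82.8 and 74.7 CPM in HT. HH replicate 1 was the highest library, and the difference of -0.42 ± 0.12 was -0.27 without it. Ephb6, which encodes an ephrin receptor without kinase activity, ranged from 14.2 to 17.7 CPM in the TTX-first libraries, against 19.7 to 22.2 CPM in the vehicle-first ones (-0.39 ± 0.13).

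Ebp, which encodes a sterol isomerase of cholesterol synthesis, had 3.87 and 3.44 CPM in TH and 2.99 and 2.79 CPM in TT, against 7.09 and 6.26 CPM in HH and 4.66 and 4.21 CPM in HT (-0.74 ± 0.24). Each group given TTX second lay below the group of the same history given vehicle second. The heat shock protein gene Dnajb1 ranged from 10.2 to 14.3 CPM in the TTX-first libraries, against 14.6 to 18.8 CPM in the vehicle-first ones (-0.44 ± 0.16), and Sdhb, which encodes a subunit of mitochondrial complex II, ranged from 43.2 to 44.1 CPM in the TTX-first libraries, against 45.9 to 53.6 CPM in the vehicle-first ones (-0.15 ± 0.09). Rnf144b, which encodes a ubiquitin ligase, had 52.8 and 52.8 CPM in TH and 45.1 and 44.8 CPM in TT, against 80.5 and 57.9 CPM in HH and 72.4 and 55.6 CPM in HT, with the first replicates of HH and HT highest (-0.45 ± 0.13, and -0.22 without them).

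Golga7b, of the golgin A7 family, had 22.4 and 18.8 CPM in TH and 16.4 and 17.1 CPM in TT, against 29.6 and 23.7 CPM in HH and 29.5 and 24.4 CPM in HT (-0.53 ± 0.14). Rrp9, which encodes a protein of the U3 small nucleolar ribonucleoprotein, ranged from 10.96 to 13.3 CPM in the TTX-first libraries, against 14.9 to 17.3 CPM in the vehicle-first ones (-0.41 ± 0.15). The membrane protein gene Tmem200a ranged from 79.7 to 91.7 CPM in the TTX-first libraries, against 96.5 to 144 CPM in the vehicle-first ones (-0.45 ± 0.13), and Als2cr12 ranged from 0.997 to 2.19 CPM in the TTX-first libraries, against 2.53 to 4.40 CPM in the vehicle-first ones (-0.93 ± 0.36). The values of Als2cr12 rest on 4 to 17 reads a library. Pole2, which encodes a subunit of DNA polymerase epsilon, met the rule with 1 library far from the rest: it had 4.70 and 978 CPM in TH and 766 and 982 CPM in TT, against 1248 and 1119 CPM in HH and 1063 and 1271 CPM in HT. TH replicate 1 stood at 17 reads while the most in any library was 4930 reads, and the difference of -0.84 ± 1.25 had the widest error of the named genes and was -0.35 without that library. The mean level of Pole2 was 929 CPM, against 5.30 CPM for Chaf1b of the same gene list. Which reads are counted under the symbol Pole2 is not known, since the annotation and strand settings are not given.

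At the edge of the rule the arms were almost in contact. Just inside it, Pdhx, which encodes a component of the pyruvate dehydrogenase complex, ranged from 34.3 to 38.8 CPM in the TTX-first libraries, against 27.6 to 34.3 CPM in the vehicle-first ones, and Sec61b, of the channel that moves proteins into the endoplasmic reticulum, from 7.29 to 12.2 CPM in the TTX-first libraries, against 12.2 to 15.4 CPM in the vehicle-first ones. Just outside it, the tyrosine kinase gene Fyn ranged from 793 to 1137 CPM in the TTX-first libraries, against 725 to 793 CPM in the vehicle-first ones, and Tmem101 from 13.2 to 14.2 CPM in the TTX-first libraries, against 14.2 to 16.00 CPM in the vehicle-first ones. The genes of smallest unadjusted p over the whole table both lay outside the rule. Slc2a2, which encodes a glucose transporter, had 9.67 and 5.46 CPM in TH and 8.72 and 7.77 CPM in TT, against 2.78 and 5.48 CPM in HH and 1.29 and 1.97 CPM in HT. These values rest on 5 to 39 reads a library. TH replicate 2 lay just under HH replicate 2 in this gene, and the difference was 1.57 ± 0.31 (edgeR adjusted p = 0.814). Tnfrsf19, which encodes a receptor of the tumour necrosis factor receptor family, had 48.1 and 38.2 CPM in TH and 47.6 and 57.8 CPM in TT, against 25.3 and 25.3 CPM in HH and 36.5 and 41.5 CPM in HT, with TH replicate 2 under HT replicate 2 and a difference of 0.60 ± 0.12 (edgeR adjusted p = 0.814).

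The history differences of the members had similar medians with either second treatment. The 197 higher genes had a median of 0.27 in TH over HH and 0.28 in TT over HT, and the 133 lower genes had medians of -0.34 and -0.31, as descriptions, since the rule used both. The interaction between history and second treatment passed in 0 of the 11372 genes (edgeR's smallest adjusted p = 1.00, 186 at an unadjusted p under 0.05). None of the 186 was a member, which the rule itself favours, since it asks for the same direction with either second treatment. Over all genes tested, the TH over HH and TT over HT differences share no library. Across the 11372 genes, which are not independent replicates, Pearson's r was 0.28 and Spearman's rank correlation 0.24, and 57.9% had the same sign. Without HH replicate 1 the values were 0.17, 0.16 and 56.3%, without the first replicates of HH and HT 0.21, 0.19 and 57.1%, and without their second replicates 0.42, 0.33 and 60.1%.

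**Figure D3:**
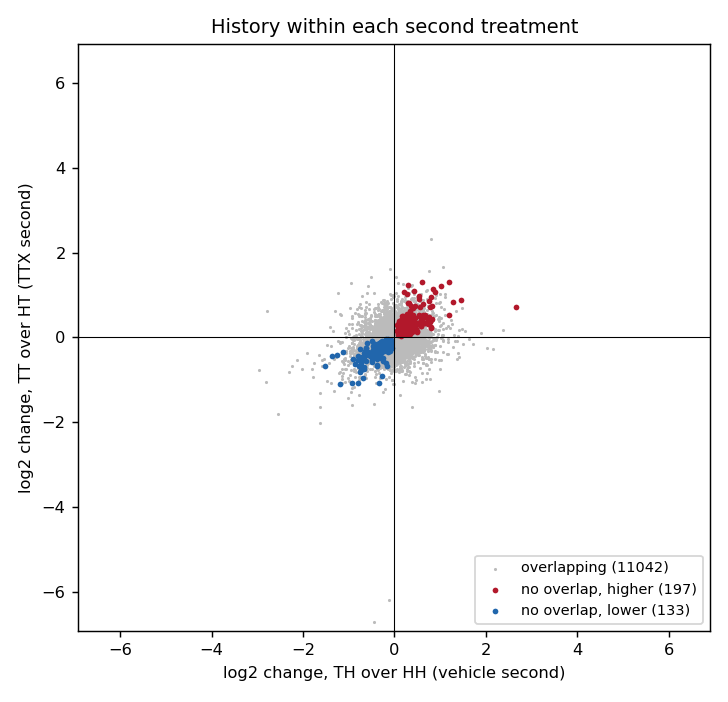
Log2 change of each tested gene in TH over HH (horizontal axis, vehicle as second treatment) and in TT over HT (vertical axis, TTX as second treatment), with the 197 higher non-overlapping genes in red, the 133 lower ones in blue and the overlapping genes in grey. By the rule the members lie at the upper right and lower left, and the grey points spread on all sides with r of 0.28 over all genes.

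The response to the second TTX comes from the same 8 libraries that the rule used, so that it is no independent measure and is given as a description. Averaged over history, it was above 0 in 135 of the 197 higher members (68.5%) and in 41 of the 133 lower members (30.8%), against 49.7% of all genes. It passed in 0 genes (edgeR's smallest adjusted p = 0.192 over all genes, 789 at an unadjusted p under 0.05), and 3 higher and 2 lower members had an unadjusted p under 0.05. HH replicate 1 was the vehicle-first library farthest from the TTX-first ones in 85 higher members (43.1%) and 69 lower members (51.9%), against 40.4% of all genes with a history difference above 0 and 41.3% of those below 0. This library enters the history and the second-treatment differences with the same sign. Without it, the second-treatment difference was above 0 in 55.3% of the higher and 47.4% of the lower members, against 50.8% of all genes. Rxrg had a second-treatment difference of -0.47 ± 0.15, TTX over vehicle, Tpcn2 of 0.60 ± 0.21, Lhfpl2 of 0.44 ± 0.14 and Arg2 of -0.19 ± 0.19.

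Leaving HH replicate 1 out brought the median of the higher members to 0.27 and that of the lower members to -0.28. Leaving out HT replicate 1 as well brought them to 0.25 and -0.23. Since members were chosen with all 8 libraries apart, their direction without a library was largely fixed by the rule. These medians are therefore a description. In RefSeq's gene order (GRCr8), 309 members had a place, and 13 of 10492 pairs of neighbouring tested genes were pairs of members (0.124%), 8 of them with the same direction. These included Morc3 with Chaf1b and Med12 with Nlgn3, named after their values were seen, for which overlapping reads cannot be told apart without the strand setting of the counting.

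Activity-response genes, which firing switches on, were among the lists farthest from 0 of the 33 gene lists examined. The 22 rapid activity-response genes had a median history difference of -0.61, with 17 below 0, against a median of 0.00 over all genes, and 0 of the 22 passed. Without HH replicate 1 the median was -0.23, and without HT replicate 1 as well it was -0.08. Fos had 9.67 and 6.88 CPM in TH and 10.96 and 9.36 CPM in TT, against 37.01 and 5.74 CPM in HH and 11.6 and 6.46 CPM in HT. The 3 other vehicle-first libraries lay on both sides of the TTX-first range, and the difference was -0.60 ± 0.57 with all libraries and 0.32 without HH replicate 1.

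Arc, which encodes a cytoskeletal protein of active synapses, had 8.56 and 3.64 CPM in TH and 4.24 and 5.18 CPM in TT, against 41.6 and 7.04 CPM in HH and 9.31 and 6.46 CPM in HT (-1.38 ± 0.63, and -0.50 without HH replicate 1). Npas4, which encodes a transcription factor of firing neurons, had 3.87 and 3.24 CPM in TH and 3.74 and 3.19 CPM in TT, against 53.05 and 3.91 CPM in HH and 9.57 and 1.97 CPM in HT (-1.87 ± 1.01, and -0.46 without HH replicate 1). In each of them HH replicate 1 was several times above every other library. HH replicate 1 was the highest library in 16 of the 22 rapid genes.

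The 32 later activity-response genes had a median of -0.46, with 30 below 0, which was -0.23 without HH replicate 1 and -0.08 without HT replicate 1 as well. Of the 32, 8 had an unadjusted p under 0.05, 0 were without overlap and 0 passed. Pcsk1, which encodes a protease that matures neuropeptides, had 12.98 and 9.11 CPM in TH and 12.2 and 7.57 CPM in TT, against 38.6 and 20.6 CPM in HH and 18.4 and 10.9 CPM in HT (-1.01 ± 0.27). Rgs2, which encodes a brake on G protein signalling, had 13.3 and 5.26 CPM in TH and 7.47 and 6.57 CPM in TT, against 24.7 and 15.1 CPM in HH and 16.04 and 10.1 CPM in HT (-1.02 ± 0.30). In both genes HH replicate 1 was highest and HT replicate 2 lay among the TTX-first values. Without the first replicates of HH and HT the differences were -0.55 for Pcsk1 and -0.65 for Rgs2. Bdnf, which encodes a neurotrophin, had 19.3 and 10.9 CPM in TH and 17.7 and 12.9 CPM in TT, against 122 and 20.1 CPM in HH and 35.96 and 12.1 CPM in HT. Its difference was -1.46 ± 0.71, and -0.06 without the first replicates of HH and HT.

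The 15 feedback genes of the ERK pathway, which carries growth factor and calcium signals, had a median of -0.50, with 15 below 0. It was -0.10 without HH replicate 1, with 11 below 0, and 0.02 without HT replicate 1 as well. HH replicate 1 was highest in 13 of them. The 19 neuropeptides and secreted factors had a median of -0.48, with 17 below 0, which was -0.36 without HH replicate 1 and -0.22 without HT replicate 1 as well. They held 1 gene without overlap.

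**Figure D4:**
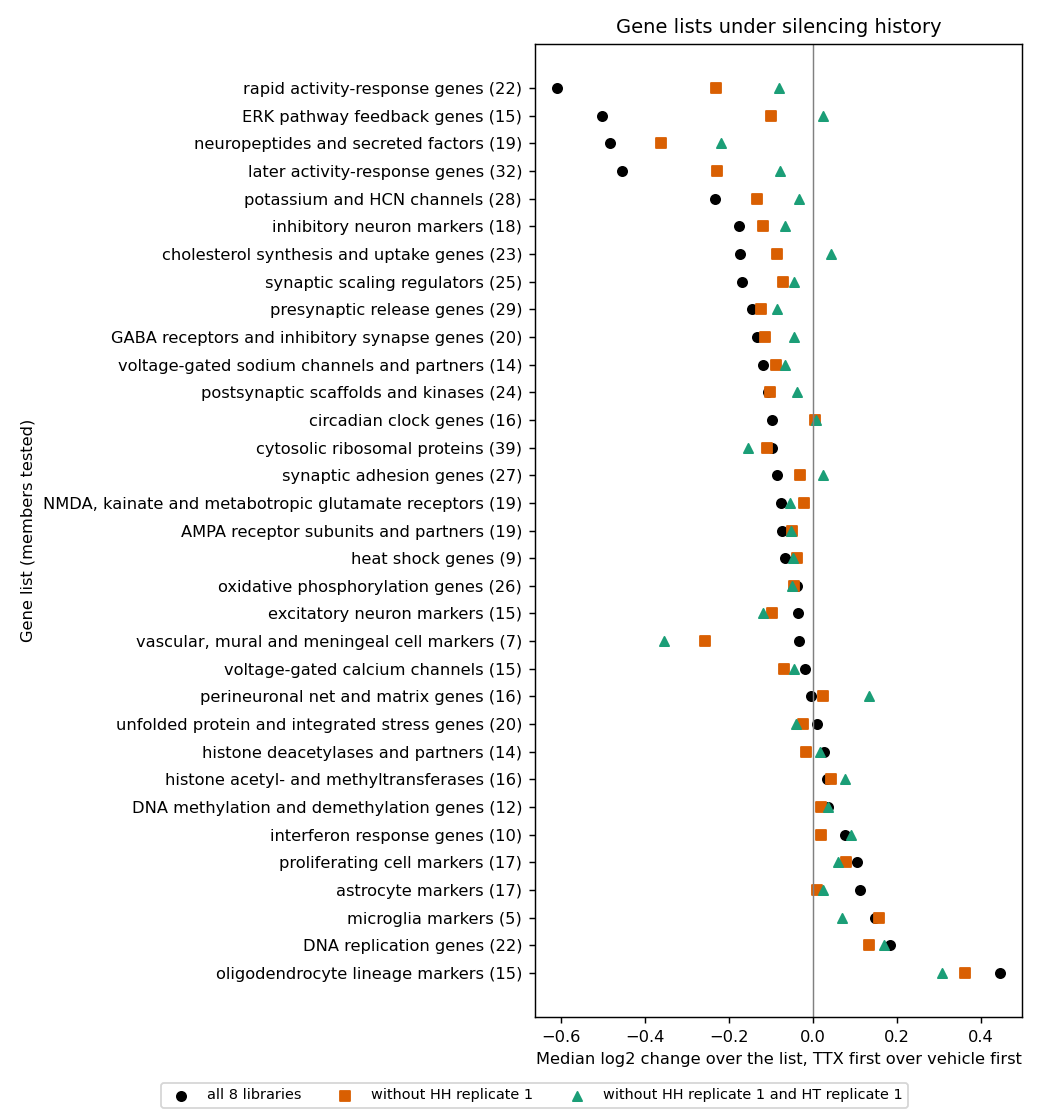
Median log2 change over the tested members of each of the 33 gene lists (vertical axis, number tested in parentheses), TTX first over vehicle first, with all 8 libraries (black), without HH replicate 1 (orange) and without HH replicate 1 and HT replicate 1 (green). The rapid activity-response genes lie at -0.61, -0.23 and -0.08, and the oligodendrocyte lineage markers at 0.45, 0.36 and 0.31.

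Neuronal excitability and synapse lists lay below 0 by less. The 28 potassium and HCN channel genes had a median of -0.23 (23 below 0), which was -0.13 without HH replicate 1 and -0.03 without HT replicate 1 as well. Their members of smallest p were Kcnc4, a voltage-gated channel subunit of fast-firing neurons, at -0.64 ± 0.18, and Kcnk2. Kcnc4 had 11.3 and 7.29 CPM in TH and 8.47 and 8.17 CPM in TT, against 11.1 and 13.04 CPM in HH and 15.8 and 14.6 CPM in HT, so that TH replicate 1 overlapped HH replicate 1. The 29 presynaptic release genes had a median of -0.14 (27 below 0), which was -0.12 without HH replicate 1 and -0.09 without HT replicate 1 as well, and Unc13a was the 1 gene among them without overlap. Syt4, which encodes a synaptotagmin, stood at -0.33 ± 0.12 and Sv2b, which encodes a synaptic vesicle glycoprotein, at -0.33 ± 0.13.

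The 20 genes of GABA receptors and inhibitory synapses had a median of -0.13 (19 below 0), the 14 sodium channels and partners one of -0.12 (12 below 0), and the 24 postsynaptic scaffolds and kinases one of -0.11 (21 below 0). Without the first replicates of HH and HT these medians were -0.05, -0.07 and -0.04. AMPA receptor subunits and partners (19 genes, median -0.07, 14 below 0) and the other glutamate receptors (19 genes, median -0.08, 14 below 0) were close to the median of all genes. Gria1, which encodes an AMPA receptor subunit, had 1731 and 2134 CPM in TH and 1817 and 1793 CPM in TT, against 1892 and 2044 CPM in HH and 1535 and 1891 CPM in HT (0.02 ± 0.13). Gria2, which encodes another, had 633 and 815 CPM in TH and 794 and 735 CPM in TT, against 985 and 734 CPM in HH and 791 and 659 CPM in HT (-0.08 ± 0.13). The arms overlapped in both genes, whose differences were smaller than their errors. The 25 synaptic scaling regulators had a median of -0.17 (18 below 0) and held 0 members. Their median was -0.07 without HH replicate 1 and -0.05 without HT replicate 1 as well. Their gene Nptx2, which encodes a secreted pentraxin that clusters AMPA receptors, had 18.5 and 12.95 CPM in TH and 16.9 and 14.3 CPM in TT, against 27.8 and 19.8 CPM in HH and 19.4 and 13.8 CPM in HT (-0.35 ± 0.18). The Nptx2 difference was -0.23 without HH replicate 1 and -0.09 without HT replicate 1 as well. Homer1, a synaptic scaffold gene, stood at -0.49 ± 0.29 and at -0.05 without HH replicate 1.

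Markers of other cell types and of dividing cells differed from list to list. The 15 oligodendrocyte lineage markers had a median of 0.45, with 14 above 0 and 8 at an unadjusted p under 0.05, which was 0.36 without HH replicate 1, 0.31 without HT replicate 1 as well, and 0.21 without TT replicate 2. Gpr17, which encodes a receptor of maturing oligodendrocyte precursors, had 9.39 and 13.8 CPM in TH and 14.9 and 25.9 CPM in TT, against 6.48 and 6.78 CPM in HH and 13.7 and 12.9 CPM in HT (0.73 ± 0.22). Enpp6, which marks newly formed oligodendrocytes, had 30.9 and 38.05 CPM in TH and 50.8 and 70.5 CPM in TT, against 26.2 and 33.9 CPM in HH and 34.7 and 40.7 CPM in HT (0.45 ± 0.14). In both genes TT replicate 2 was the highest library and the arms overlapped. The summed level of the 15 markers was 991 to 1880.3 CPM in the TTX-first libraries and 787 to 1123 CPM in the vehicle-first ones, which overlapped, with 0 of the markers at 0 reads throughout. The median second-treatment difference of the list, TTX over vehicle, was 0.57, larger than its median history difference. Its part in the history differences of other genes was not tested.

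The 17 proliferating cell markers were all above 0, at a median history difference of 0.11. The median was 0.08 with 14 above 0 without HH replicate 1, and 0.06 with 10 above 0 without HT replicate 1 as well. It was 0.27 in TH over HH and 0.00 in TT over HT, and the median second-treatment difference was 0.67. Their summed levels, 278 to 433 CPM in the TTX-first and 250.4 to 479 CPM in the vehicle-first libraries, overlapped. The 22 DNA replication genes had a median of 0.18 (17 above 0), and Chaf1b and Pole2 were their members without overlap, in opposite directions. Astrocyte markers had a median of 0.11 (10 of 17 above 0) that was 0.01 without HH replicate 1. Aqp4, which encodes the water channel of astrocytes, ranged from 177 to 221 CPM in the TTX-first libraries, against 133 to 194 CPM in the vehicle-first ones (0.27 ± 0.09). Its difference did not follow the list median, being 0.35 without HH replicate 1 and 0.39 without HT replicate 1 as well. Microglia markers were few and low (5 tested, 14.6 to 22.5 CPM summed in the TTX-first and 14.2 to 21.6 CPM in the vehicle-first libraries), and 7 vascular, mural and meningeal markers summed to 102 to 149.7 CPM in the TTX-first and 88.2 to 184 CPM in the vehicle-first libraries.

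Excitatory neuron markers had a median of -0.04 (10 of 15 below 0) and inhibitory neuron markers one of -0.18 (12 of 18 below 0), with summed levels of 4056 to 5076 CPM in the TTX-first and 3989.6 to 6801 CPM in the vehicle-first libraries, HH replicate 1 being highest. Cytosolic ribosomal protein genes had a median of -0.10 (34 of 39 below 0), which was -0.11 without HH replicate 1 and -0.15 without HT replicate 1 as well. Cholesterol synthesis and uptake genes had a median of -0.17 (18 of 23 below 0), -0.09 without HH replicate 1 and 0.04 without HT replicate 1 as well, beside a median second-treatment difference of -0.49, TTX over vehicle. The 16 histone acetyl- and methyltransferases (median 0.03), the 12 DNA methylation and demethylation genes (0.04), the 14 histone deacetylases and partners (0.03) and the 15 calcium channels (-0.02) were near 0. Over the 33 lists 0 genes passed, and 19 of the 589 distinct genes were members (3.23%), close to the 2.90% of all genes. Of these 19, 15 were lower and 4 higher, against 133 lower (1.17%) and 197 higher (1.73%) among all 11372 genes. The lists were chosen with earlier results of these data known, so that this split is only a description.

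**Figure D5:**
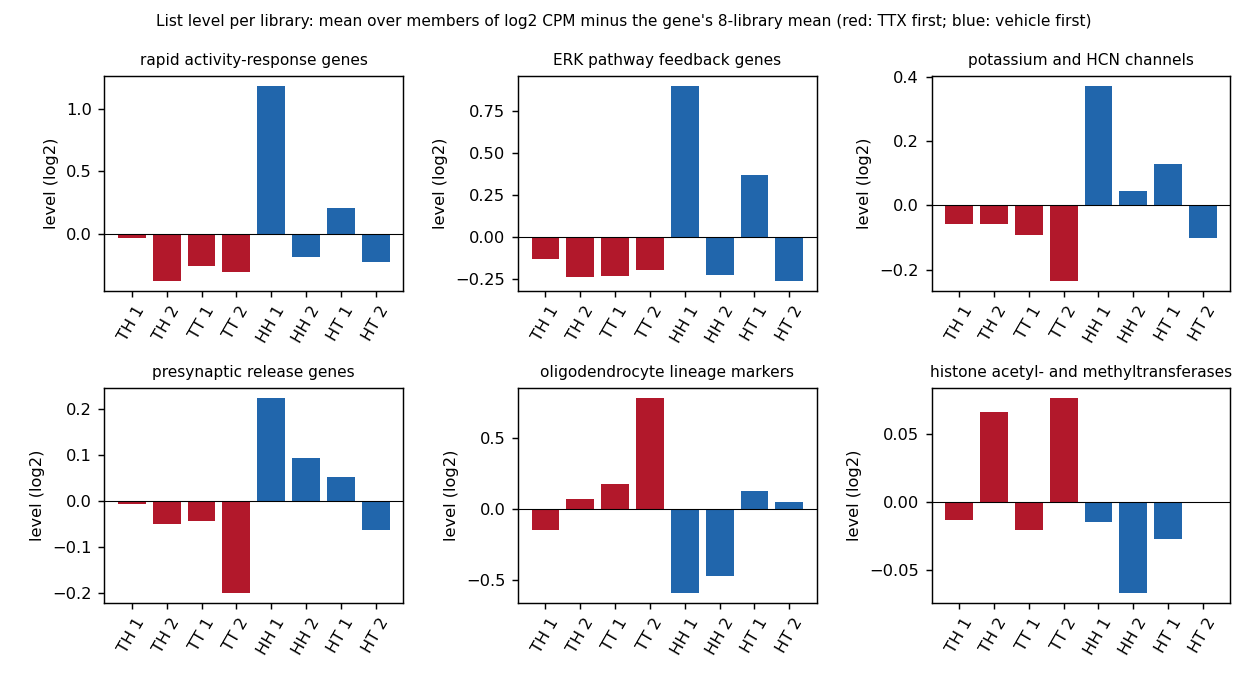
Level of 6 gene lists per library, as the mean over members of log2 CPM minus each gene's mean over the 8 libraries (vertical axes, log2), with TTX-first libraries in red and vehicle-first libraries in blue. The rapid activity-response genes reach 1.18 in HH replicate 1 and lie between -0.38 and 0.21 in the other 7 libraries, and the oligodendrocyte lineage markers reach 0.78 in TT replicate 2.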

How the data were processed

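The deposited table holds the authors' whole-number read counts per gene symbol for 8 BrU-seq libraries, 2 in each of TH, TT, HH and HT, not normalized. Per the submitters' processing notes, the reads went through FastQC, Bowtie2, TopHat2 and featureCounts on rn6. Not given in the sources used here are tool versions, the annotation, strand and intron settings and how genes were selected. Nascent RNA is largely unspliced, so these settings can change the level of a gene, and reads of overlapping genes may not be told apart. A column was given to the sample whose description starts with its number. Another 2 columns fit no sample and were left aside.

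Differences come from edgeR 4.0.16 (R 4.3.3). Genes were kept by filterByExpr at a minimum count of 10, libraries were scaled by TMM, the 4 groups each had a mean in 1 fit (residual df 4), and p-values from the robust quasi-likelihood F test were adjusted over all 11372 tested genes by Benjamini-Hochberg, with 0.05 as threshold. The history contrast is the mean of TH and TT minus the mean of HH and HT. CPM use the TMM-scaled totals, log2 CPM a prior count of 2 for lists and principal components, and the SE is the size of the log2 change divided by the root of F, so that all 4 groups' spread enters it. Totals of 3489176 to 4959887 counts leave few reads for genes of a few CPM. A chi-square test of counts found each replicate pair farther apart than sampling noise, so each library counts once. DESeq2 1.42.0 and limma-voom (limma 3.58.1), other scaling, no filter, a replicate block, an additive model, a minimum gap and leaving out libraries were tried as alternatives. Plots used matplotlib 3.10.9 (Python 3.11.15).

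The members and the gene lists were chosen with earlier results of these data known, and the lists are described by counts and medians only. Named genes, placeholder symbols left out, are the 12 of smallest history p and the 6 of widest gap in each direction, members that belong to a list, up to 3 genes of each list by p, the 4 leading genes of each simple comparison, 8 genes named in any case (Gria1, Gria2, Arc, Fos, Bdnf, Npas4, Nptx2 and Homer1), and 3 genes on each side of the edge of the rule. Some of these are not reported here, and others are marked as named after their values were seen. No batch or date is labelled, so there are no within-batch values.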

Additional observations from a re-analysis of the deposited data

Results flagged for a closer look

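In groups of 4 libraries, 222 sets of values for named genes and gene lists were examined for a library far from the other 3, by the gap to its nearest neighbour as a share of the group's whole range, and 12 (5.41%) were above Dixon's 95% critical value for 4 samples. Chance alone gives about 1 in 20 such groups.

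TT replicate 2 gave 6 of the 7 cases among genes. It was the highest TTX-first library in Tpcn2 (0.9306), Gja1, an astrocyte gap junction gene (0.875), Lhfpl2 (0.8647) and Nlgn3 (0.8314), and the lowest in Gabbr2 (0.9145) and Kcnk2 (0.884). Gja1 ranged from 81.2 to 95.4 CPM in the TTX-first libraries, against 65.4 to 85.3 CPM in the vehicle-first ones. TH replicate 1 was the lowest TTX-first library in Pole2 (0.9527), at 4.70 CPM against 766 to 982 CPM in the other 3 TTX-first libraries.

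Among the list levels, TH replicate 2 was the highest TTX-first library for AMPA receptor subunits and partners (0.8589). TH replicate 1 was the highest for inhibitory neuron markers (0.8399) and the lowest for DNA methylation and demethylation genes (0.8725). HH replicate 2 was the highest vehicle-first library for voltage-gated calcium channels (0.8606), and HT replicate 1 the lowest for cytosolic ribosomal proteins (0.8746).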

How the results depend on the processing

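The count of genes past the threshold in the history average was 0 with DESeq2 size factors, DESeq2, limma-voom, no low-count filter, the replicate block and the additive model, and ran from 0 to 104 when 1 library was left out: 104 (12 higher and 92 lower) without HH replicate 2 and 1 (Pole2) without TH replicate 2. In the same way TH against HH ran from 0 to 121, the interaction from 0 to 2, and TT against HT stayed at 0. Leaving out 1 library leaves its group with a single one, assumed to vary like the others. Leaving out HH replicate 2 makes HH replicate 1 the whole of HH.

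The numbers of non-overlapping genes, 197 higher and 133 lower, became 366 and 66 with CPM by library totals (a scaling not run for the test) and 42 and 21 with a gap of at least 0.1. With fewer libraries more genes meet the rule by construction: leaving out 1 library gave 306 to 529 higher and 198 to 462 lower, and leaving out HH replicate 1 and HT replicate 1 gave 796 and 794. The replicate numbers pair HH with HT at a correlation of replicate differences of 0.447 but the other groups at -0.066 to 0.087, so they were not taken as pairs. A fit with the replicate number as a block called 0 genes, and 336 higher and 257 lower genes did not overlap after its removal.

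Some named genes outside the rule turned sign, and the cause was not tested. Gria2 was 0.0010 without TH replicate 1, 0.027 without HH replicate 1 and 0.098 without HH replicate 1 and HT replicate 1. Gria1 was -0.056 without TH replicate 2, -0.0042 without HH replicate 1, -0.046 without HT replicate 1 and -0.074 without both of these. Fos was 0.32 without HH replicate 1 and 0.57 without both, Npas4 0.32 and Homer1 0.036 without both. Over all single libraries left out, Gria2 ran from -0.18 to 0.027, Gria1 from -0.056 to 0.10 and Fos from -1.02 to 0.32. Medians of gene lists moved by more than their spread, the within-group SD of the list level, in 15 of 495 alternatives. HH replicate 1 itself widens that spread, which was 0.52 for rapid activity-response and 0.46 for ERK feedback genes. Their moves without HH replicate 1, from -0.61 to -0.23 and from -0.50 to -0.10, were therefore not counted, and the 15 do not measure stability. Medians of ERK feedback and cholesterol genes, for example, were above 0 (0.02 and 0.04) without both first replicates.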

Other observations

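Gene lists of general cell function lay near the median of all genes. Oxidative phosphorylation genes had a median history difference of -0.04 (15 of 26 below 0), heat shock genes -0.07 (6 of 9 below 0) and genes of the unfolded protein and integrated stress responses 0.01 (9 of 20 below 0). Interferon response genes stood at 0.08 (8 of 10 above 0), 0.02 without HH replicate 1. Circadian clock genes stood at -0.10 (9 of 16 below 0) and at 0.00 without HH replicate 1.

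Synaptic adhesion genes had a median of -0.09 (20 of 27 below 0), which was -0.03 without HH replicate 1, and the members among them, Nlgn3 and Slitrk5, lay on opposite sides. Perineuronal net and matrix genes had a median of 0.00 (8 of 16 above 0), with Has3 as their member. Among genes leading 1 of the simple comparisons, Mitf, which encodes a transcription factor of lysosome and pigment genes, had 137 and 144 CPM in TH and 178 and 162 CPM in TT, against 217 and 198 CPM in HH and 175 and 199 CPM in HT (-0.56 ± 0.13 in TH over HH and -0.14 ± 0.13 in TT over HT). Tcf7l2, which encodes a transcription factor of the Wnt pathway that is active in the oligodendrocyte lineage, had 22.9 and 28.3 CPM in TH and 36.9 and 55.97 CPM in TT, against 20.7 and 19.6 CPM in HH and 28.5 and 25.3 CPM in HT (0.36 ± 0.23 in TH over HH and 0.79 ± 0.21 in TT over HT). The arms overlapped in both genes, and neither passed (edgeR).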
